A study of Mus musculus with 4 samples.

Results

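The imprinted growth network genes are a set of 10 mouse genes, H19, Igf2, Igf2r, Cdkn1c, Grb10, Plagl1, Mest, Peg3, Ndn and Dlk1. They were chosen by symbol in the expression table, and all 10 of 10 were found among its 23970 symbols. The study compared primary keratinocytes of newborn mice that were Ovol2-deficient (2 libraries) with those of control mice (2 libraries). Ovol2 is a zinc-finger transcription factor of epithelia. Cells of both groups were at passage 0, came from low-calcium cultures on a layer of J2-3T3 fibroblasts that had been stopped from dividing, and were lysed short of confluence once that layer was off. They had no other treatment. The strain, the altered part of Ovol2, any Cre driver and the meaning of the code SSKO in the titles of the deficient samples are not given in the sources used here. How many animals each library holds is not stated in the labels, so the p-values measure only the spread between these libraries.

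An imprinted gene is transcribed mainly from the copy inherited from one parent, because a control region near it carries DNA methylation on the copy from 1 parent only. Which copy is methylated differs between domains, and it can be the expressed one, as for Igf2 and Igf2r. In the mouse Igf2, Plagl1, Mest, Peg3, Ndn and Dlk1 are expressed from the paternal copy, H19, Igf2r and Cdkn1c from the maternal copy, and Grb10 from the maternal copy in most tissues outside the brain. Many of the paternally expressed genes favour fetal growth and many of the maternally expressed ones restrain it, and they are known to be expressed together in growing tissues and to decline after birth. The deposited values sum both parental copies, so they do not show which copy was read. In bulk RNA, fewer cells of a type and less RNA per cell cannot be told apart.

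The deposited levels are FPKM, which are fragment numbers corrected for transcript length and for library size. The authors' deposited table of the same comparison gives a mean normalized signal over the libraries, which ranged from 75.1 for Ndn to 6526 for Peg3 among the 10 genes, so Ndn rests on the fewest reads. Ovol2 stood at 1.45 and 0.94 FPKM in the Ovol2-deficient libraries and at 2.68 and 2.14 FPKM in the controls, a log2 fold change of -0.64 that missed the threshold (adjusted p = 0.129 in limma). The authors' deposited table gave Ovol2 -0.36 (adjusted p = 0.441). The libraries numbered 1 and 2 in the table differed in sex-linked genes. Xist, the RNA of the inactive X chromosome of females, stood at 70.1 FPKM in Ovol2-deficient library 1 and 71.1 in control 1, and at 0.047 in Ovol2-deficient library 2 and 0.011 in control 2. The Y-linked gene Eif2s3y was listed at 0 in both libraries numbered 1 and stood at 49.6 FPKM in Ovol2-deficient library 2 and 41.6 FPKM in control 2. The labels give no sex. The 2 libraries of a group were therefore not repeats of the same RNA, each group held 1 library of each kind, and differences are also given within each library number, with 1 library per group there and no test.

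None of the 10 genes was called at an adjusted p under 0.05 in limma, a linear model fitted over the 11350 genes whose FPKM averaged 1 or more. All 10 passed that filter. In all tested genes 1.35% were called, 95 higher and 58 lower in the Ovol2-deficient libraries, a split that became 5 higher and 0 lower under quantile normalization. At an unadjusted p under 0.05 there were 4 of the 10, against 17.4% of all tested genes. The authors' deposited table had 2 of the 10 at an adjusted p under 0.05, Grb10 higher and Plagl1 lower, against 4.43% of the 11580 genes with an adjusted p there, 2.33% higher and 2.1% lower. The groups did not overlap for 6 of the 10 genes, 3 higher (Igf2, Grb10, Dlk1) and 3 lower (Igf2r, Plagl1, Peg3), a share near the 48.1% of all tested genes. The median log2 fold change of the 10 was 0.17, beside -0.0014 for all tested genes.

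Per unit of length, 3 of the genes stood well above the others. The values of Peg3, Igf2r and Plagl1 ran from 23.8 to 42.2 FPKM over the 4 libraries, while none of the other 7 genes exceeded 13.4 FPKM. All Peg3 values lay above all Igf2r values, and those of Igf2r and Plagl1 overlapped. Below them the order of the control means was Grb10 (8.46 FPKM), Cdkn1c (6.39), Mest (5.34), H19 (4.21), Ndn (3.51), Igf2 (3.06) and Dlk1 (2.73). The values of each neighbouring pair in this order of 7 overlapped over the 4 libraries.

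**Figure D1:**
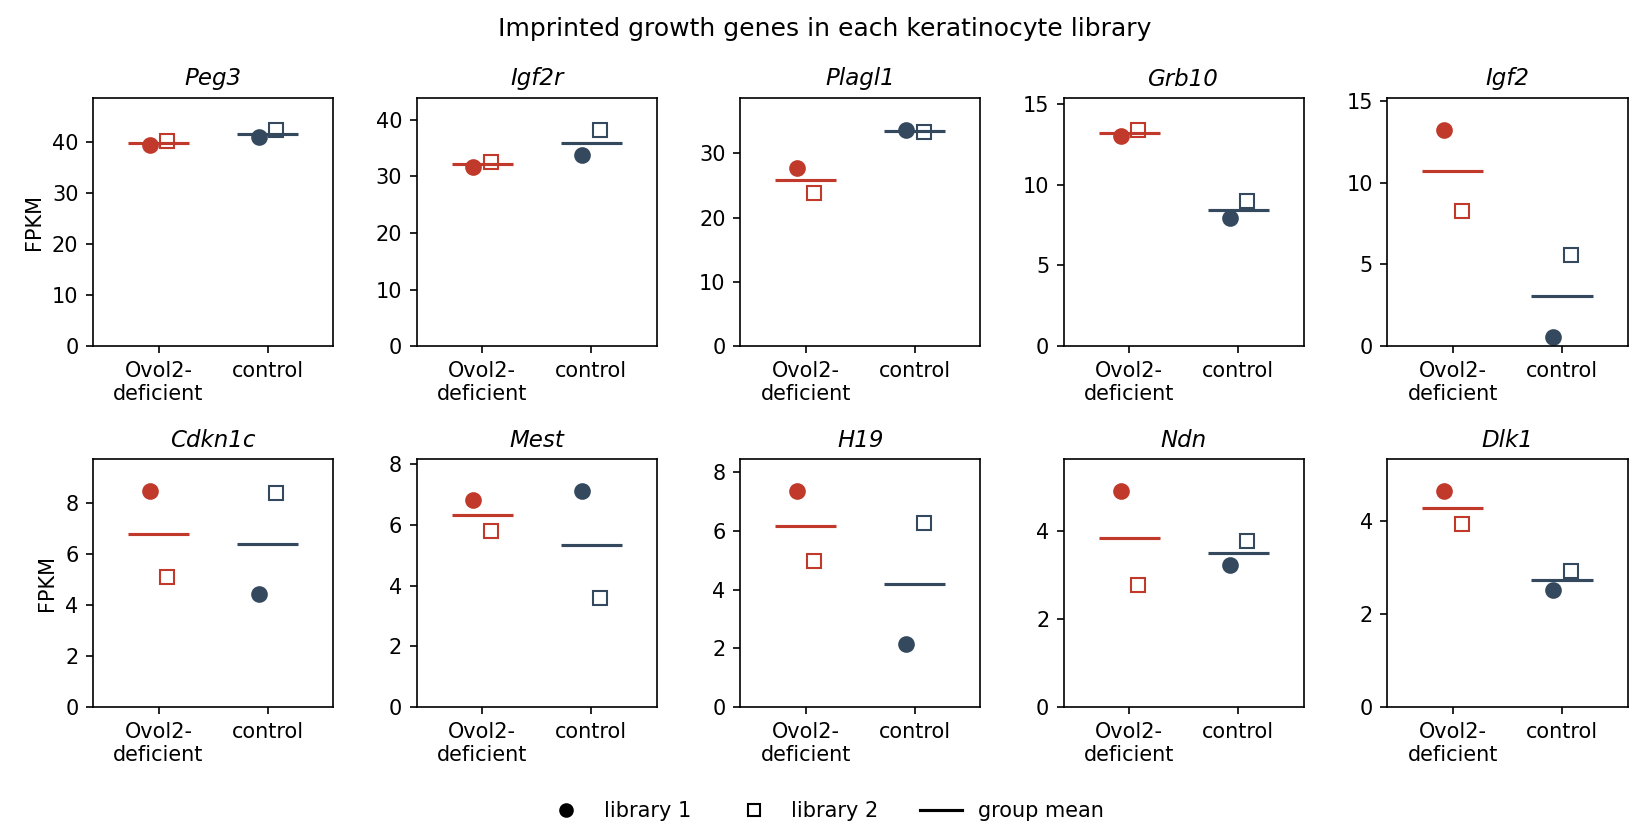
Expression (FPKM, linear axes from 0, a separate scale per gene) of the 10 genes in each library, ordered by mean level, with circles for library 1, open squares for library 2 and lines for the mean of 2 libraries. Grb10 and Plagl1 show tight groups that do not overlap. In Igf2r, Cdkn1c, H19, Mest and Ndn the libraries of at least 1 group lie farther apart than the group means.

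The starts of these genes are where the imprint is read out. The CpG-rich promoters of Plagl1, Mest and Peg3 are germline control regions that carry maternal methylation, and ZFP57, a zinc-finger protein, keeps such methylation by binding the hexamer TGCCGC once it is methylated. RefSeq promoter windows (build GRCm38.p6, the same assembly as mm10), 250 bases before to 50 bases after an annotated start, matched 8 of the 10 genes with 14 windows. They are shown for Grb10 and Plagl1, which the authors' deposited table called, and for Mest, which holds most matches. Capitals mark matches to TGCCGC or its reverse complement GCGGCA, lower case the rest.
Grb10 (chr11:12037371-12037670, minus strand): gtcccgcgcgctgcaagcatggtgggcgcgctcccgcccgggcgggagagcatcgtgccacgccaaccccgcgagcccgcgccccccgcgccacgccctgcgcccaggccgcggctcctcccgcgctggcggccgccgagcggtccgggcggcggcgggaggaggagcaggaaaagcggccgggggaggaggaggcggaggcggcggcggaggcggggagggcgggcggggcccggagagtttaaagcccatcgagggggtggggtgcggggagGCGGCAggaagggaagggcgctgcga
Plagl1 (chr10:13090582-13090881, plus strand): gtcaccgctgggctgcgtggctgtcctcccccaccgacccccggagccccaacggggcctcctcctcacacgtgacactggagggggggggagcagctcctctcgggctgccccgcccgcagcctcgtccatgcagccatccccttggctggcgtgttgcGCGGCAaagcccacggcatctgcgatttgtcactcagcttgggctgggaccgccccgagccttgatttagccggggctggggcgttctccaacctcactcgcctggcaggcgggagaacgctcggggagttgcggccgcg
Mest (chr6:30737800-30738099, plus strand): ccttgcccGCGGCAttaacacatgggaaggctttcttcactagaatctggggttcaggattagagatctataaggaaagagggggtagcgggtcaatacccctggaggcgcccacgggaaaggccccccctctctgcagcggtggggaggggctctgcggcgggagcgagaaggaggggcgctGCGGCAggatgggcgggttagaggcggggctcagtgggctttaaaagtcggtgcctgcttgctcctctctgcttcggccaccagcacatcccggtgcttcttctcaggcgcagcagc
The hexamer was found on either strand in 5 of the 14 windows, in Igf2, Grb10, Plagl1 and Mest, where a pair of nearly coincident windows counts separately, against 11.6% of 32851 mouse promoter windows of that length. The Grb10 window shown held 45 CpG sites and the Plagl1 window 26, against a median of 7 over all windows, so their base composition differs from that of most promoters. The Mest window shown held 17 CpG sites. Another Grb10 window, not shown, held 9 CpG sites and no hexamer match. The letters CCGTTA, the core bound by OVO-family factors such as Ovol2, or their reverse complement TAACGG, were in 0 of the 14 windows and in 2.76% of all windows. These matches describe letters in a window and show neither binding nor methylation.

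Igf2, the fetal growth factor of the insulin family (chromosome 7, 142650766 to 142666816, minus strand, mm10), stood at 13.2 and 8.25 FPKM in the Ovol2-deficient libraries, against 0.56 and 5.57 FPKM in the controls. Both deficient values lay above both controls, but the controls themselves differed 10.04-fold. The means were 10.7 ± 3.50 FPKM in the Ovol2-deficient libraries and 3.06 ± 3.55 FPKM in the controls (SD, n = 2 each). Igf2 thus differed by a log2 fold change of 1.84 on the log2(FPKM + 1) scale (SE 0.58, 95% interval 0.47 to 3.22) and did not pass in limma (adjusted p = 0.167). The size rested on control 1. Without it the log2 fold change was 0.80 (adjusted p = 0.0887), and without control 2 it was 2.88 and passed (adjusted p = 0.000703). Within library number 1 the difference was 3.19 and within number 2 it was 0.49. The counting cannot separate Igf2 from Gm49394, a gene model that overlaps it on the same strand, or from its antisense partner Igf2os.

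The authors' deposited table put Igf2 at 0.12 (log2 fold change, SE 0.11, adjusted p = 0.772), far nearer 0 than the FPKM values. How the fold changes of that table were estimated is not given in its headers, so they may not be on the same scale as those of limma. An SE of 0.11 is not by itself a mark of precision in that table, where small SEs occurred at both low and high signals. The median SE there was 0.0318 among 2337 rows with a mean signal below 1 and 0.198 among 1558 rows with a mean signal of 30 to 100. It was 0.0965 among 116 rows with a mean signal of 10000 or more. Among 1225 tested genes with a mean signal within 1.2-fold of that of Igf2, Eif2s3y alone had a smaller SE (0.035) and alone had a wider range of FPKM over the libraries, a comparison chosen after the values were seen. Eif2s3y, whose FPKM was 0 in libraries 1 and above 40 in libraries 2, stood at 0.0021 (log2 fold change) in the authors' deposited table. The range of log2(FPKM + 1) was 3.19 for Igf2, against a median of 0.27 for these genes.

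**Figure D2:**
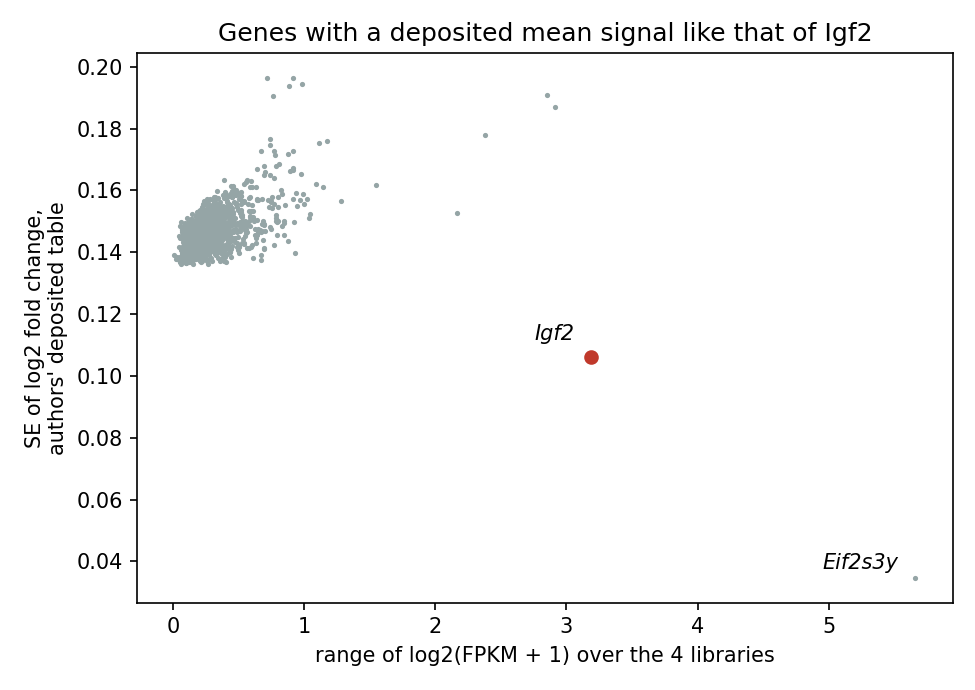
For 1225 tested genes with a deposited mean signal within 1.2-fold of that of Igf2, the range of log2(FPKM + 1) over the 4 libraries (horizontal) and the SE of the log2 fold change in the authors' deposited table (vertical). Igf2, at 3.19 and 0.11, and the Y-linked Eif2s3y, at 5.66 and 0.035, lie below the cloud, whose median SE was 0.146.

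Igf2r, the receptor that carries IGF2 to the lysosome and so removes it (chromosome 17, 12682406 to 12769664, minus strand), stood at 31.7 and 32.6 FPKM in the Ovol2-deficient libraries, against 33.8 and 38.1 FPKM in the controls. The groups did not overlap, but the gap between them was smaller than that between the controls. Igf2r differed by -0.16 on the log2 scale (SE 0.098, 95% interval -0.38 to 0.07, adjusted p = 0.478 in limma). It was -0.24 without control 1 and -0.072 without control 2. In the authors' deposited table it was -0.17 (adjusted p = 0.539).

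Grb10, an adaptor protein that binds the insulin and IGF receptors and dampens their signal (chromosome 11, 11930508 to 12038683, minus strand), stood at 13.05 and 13.36 FPKM in the Ovol2-deficient libraries, against 7.91 and 9.004 FPKM in the controls. The groups were well apart, and the libraries of each group lay close together. The means were 13.2 ± 0.225 FPKM in the Ovol2-deficient libraries and 8.46 ± 0.774 FPKM in the controls (SD, n = 2 each), a 1.505-fold difference on the log2(FPKM + 1) scale. The log2 fold change was 0.59 (SE 0.11, 95% interval 0.34 to 0.84), and its adjusted p in limma was 0.0545, just above the threshold of 0.05, so it was not called. It ranked 173 of 11350 genes by p. Within library number 1 the difference was 0.66 and within number 2 it was 0.52, and with the library number as a second term the adjusted p was 0.0328. Over 12 alternatives in limma the log2 fold change was 0.51 to 0.67 and the adjusted p 0.0328 to 0.259. The authors' deposited table gave 0.53 (adjusted p = 0.0029).

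**Figure D3:**
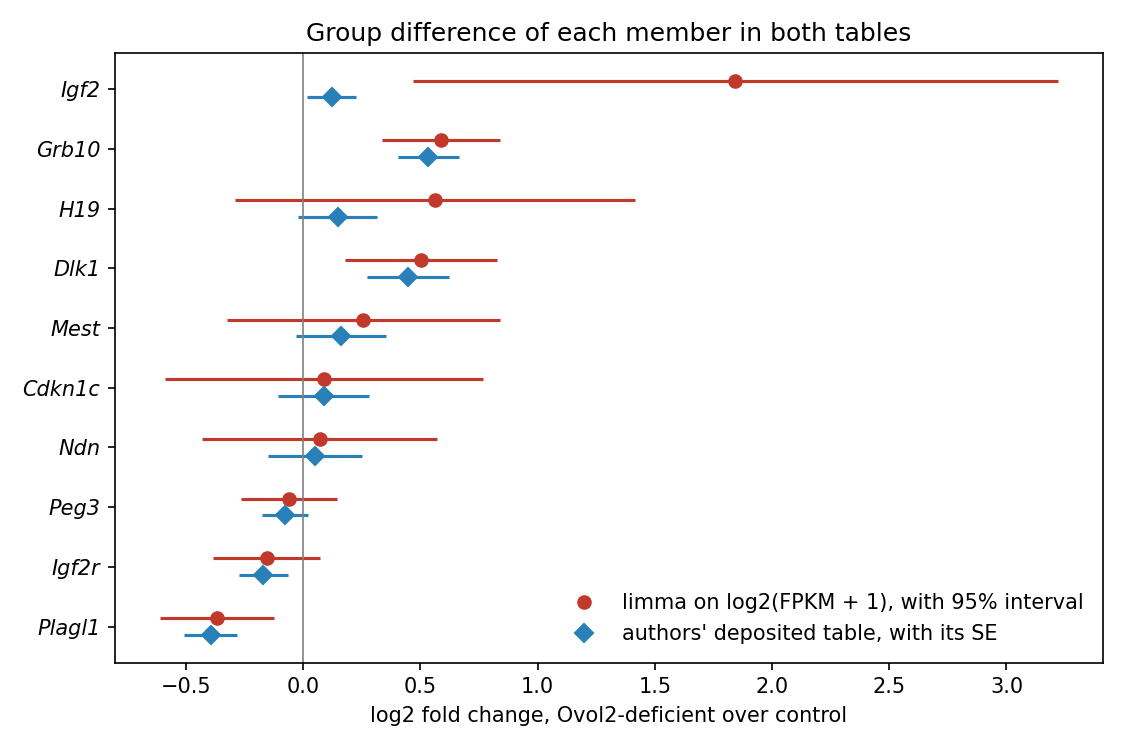
Log2 fold changes of the 10 genes, Ovol2-deficient over control, from limma on log2(FPKM + 1) with 95% intervals (red circles) and from the authors' deposited table with its SE (blue diamonds). Grb10, Dlk1 and Plagl1 lie close in both, and Igf2 lies at 1.84 in limma and at 0.12 in the deposited table.

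H19 is a long noncoding RNA made from the chromosome copy on which Igf2 is silent (chromosome 7, 142575529 to 142578143, minus strand, 72.6 kb from Igf2). It stood at 7.34 and 4.98 FPKM in the Ovol2-deficient libraries, against 2.14 and 6.27 FPKM in the controls. The groups overlapped, with control 1 lowest. The log2 fold change was 0.56 (SE 0.36, adjusted p = 0.490 in limma). It was -0.041 without control 1 and 1.17 without control 2, where it passed (adjusted p = 0.0281). The authors' deposited table gave 0.15 (adjusted p = 0.865). The row of Mir675, the microRNA made from H19, was listed at 0 in all 4 libraries. That row covers 84 bases inside H19 on the same strand, so the 0 does not show how much of the microRNA was present.

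Cdkn1c, the cyclin-dependent kinase inhibitor p57 (chromosome 7, 143458339 to 143461050, minus strand), stood at 8.44 and 5.08 FPKM in the Ovol2-deficient libraries, against 4.42 and 8.37 FPKM in the controls. Each group held a high and a low library, and the ranges of the groups nearly coincided. Cdkn1c differed by 0.09 on the log2 scale (SE 0.29, 95% interval -0.59 to 0.77, adjusted p = 0.921 in limma), an interval too wide to tell a rise from a fall. It was -0.31 without control 1 and 0.48 without control 2.

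Plagl1, a zinc-finger transcription factor that restrains proliferation and regulates other imprinted genes (chromosome 10, 13060504 to 13131694, plus strand), stood at 27.7 and 23.8 FPKM in the Ovol2-deficient libraries, against 33.6 and 33.4 FPKM in the controls. The controls were nearly equal and both deficient libraries lay below them. The means were 25.8 ± 2.73 FPKM in the Ovol2-deficient libraries and 33.5 ± 0.127 FPKM in the controls (SD, n = 2 each). The log2 fold change was -0.37 (SE 0.10, 95% interval -0.61 to -0.13) and did not pass in limma (adjusted p = 0.129, and 0.0886 to 0.506 over 12 alternatives). Within library numbers 1 and 2 the difference was -0.27 and -0.47. The authors' deposited table gave -0.39 (adjusted p = 0.0184).

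Ndn, a growth suppressor of the MAGE family known from neurons (chromosome 7, 62346569 to 62350262, plus strand), stood at 4.90 and 2.78 FPKM in the Ovol2-deficient libraries, against 3.23 and 3.79 FPKM in the controls. The deficient libraries enclosed the controls. Ndn differed by 0.07 on the log2 scale (SE 0.21, adjusted p = 0.911 in limma), and it was -0.25 without Ovol2-deficient library 1 and 0.39 without Ovol2-deficient library 2.

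Dlk1, a transmembrane protein related to the Notch ligands that keeps precursor cells from differentiating (chromosome 12, 109452823 to 109463336, plus strand), stood at 4.64 and 3.93 FPKM in the Ovol2-deficient libraries, against 2.52 and 2.94 FPKM in the controls. Both deficient values were above both controls. The log2 fold change was 0.50 (SE 0.14, 95% interval 0.18 to 0.83) and did not pass in limma (adjusted p = 0.125). Within library numbers 1 and 2 it was 0.68 and 0.33. The authors' deposited table gave 0.45 (adjusted p = 0.140).

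Peg3, a large zinc-finger protein (chromosome 7, 6703892 to 6730431, minus strand), varied least. It stood at 39.4 and 40.1 FPKM in the Ovol2-deficient libraries, against 40.8 and 42.2 FPKM in the controls. The deficient values were lower, but the gap between the groups was smaller than that between the controls. Peg3 differed by -0.06 on the log2 scale (SE 0.087, 95% interval -0.27 to 0.14, adjusted p = 0.791 in limma, and -0.037 without control 2), so at this depth a change of more than 0.27 in either direction lay outside the interval. Mest, an enzyme-like protein of the hydrolase fold (chromosome 6, 30723547 to 30748465, plus strand), stood at 6.80 and 5.80 FPKM in the Ovol2-deficient libraries, against 7.09 and 3.59 FPKM in the controls. The controls enclosed the deficient libraries. Mest differed by 0.26 on the log2 scale (SE 0.25, adjusted p = 0.667 in limma), and it was 0.67 without control 1 and -0.15 without control 2. The row of Mir335, a microRNA inside Mest, was listed at 0 in all 4 libraries. It covers 98 bases on the same strand as Mest, so this 0 does not show the level of the microRNA either.

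H19, Igf2 and Cdkn1c lie in 1 imprinted stretch of distal chromosome 7, and all 3 were lowest in control 1. Of the 9 genes of both domains that were tested, 5 were lowest in control 1 (H19, Igf2, Cdkn1c, Slc22a18 and Phlda2), against 22.2% of all tested genes. This comparison was chosen after the values of the 3 members were seen, and they are counted among the 5. Control 1 stood at 34.2% of control 2 for H19, 9.96% for Igf2, 52.9% for Cdkn1c, 66.9% for Slc22a18, an organic cation transporter, and 47.6% for Phlda2, a growth restrainer of the placenta. The other 4 genes of the stretch, Cd81, Tssc4, Nap1l4 and Osbpl5, stood at 96.7% to 108.9% of control 2. They were also the more highly expressed, at 23.9 to 305.3 FPKM in control 1, against 0.56 to 4.42 FPKM for the 5. The shares of all tested genes set beside them were not matched for expression level. A control 1 value under 60% of control 2 was seen in 4 of the 9 genes and in 1.21% of all tested genes, a limit chosen after the values were seen. This is a difference between 2 control libraries, which also differed in Xist and Y-linked RNA, and it carries no test. In the Ovol2-deficient libraries H19, Igf2 and Cdkn1c were higher in library 1, by 1.47-fold, 1.6-fold and 1.66-fold. Slc22a18 was also higher there, at 4.81 FPKM in library 1 and 4.23 in library 2, while Phlda2 was lower, at 1.84 FPKM in library 1 and 2.01 in library 2.

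**Figure D4:**
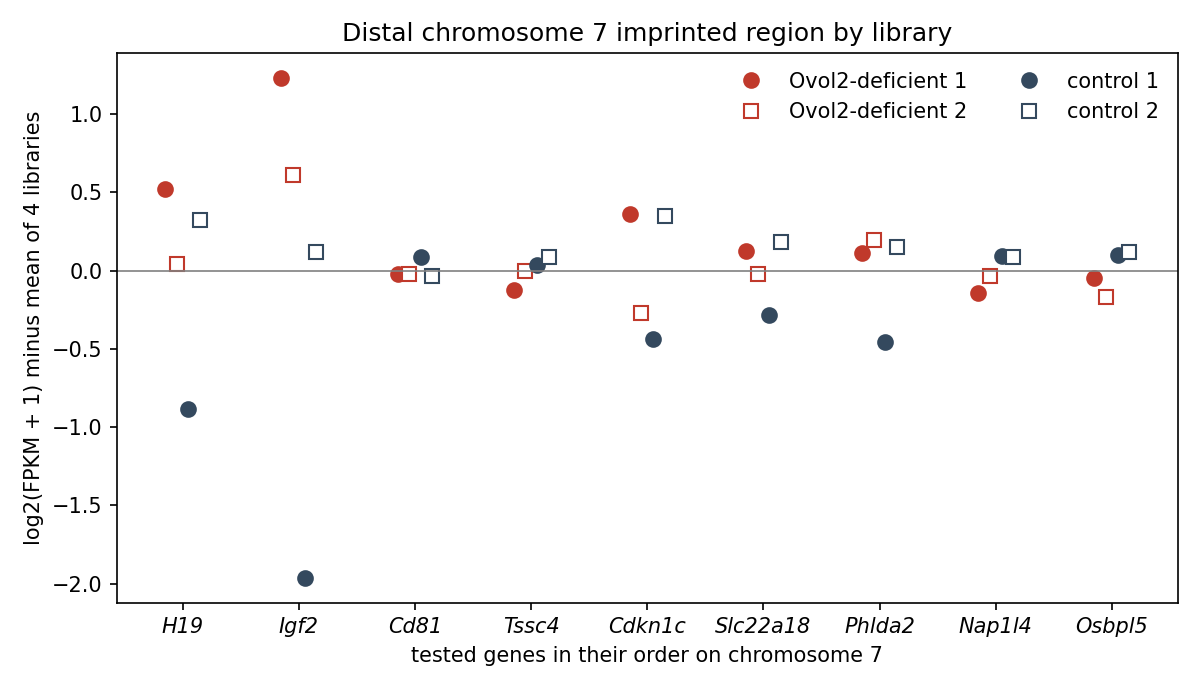
Log2(FPKM + 1) of 9 tested genes of the distal chromosome 7 imprinted region in each library, minus the mean of the 4 libraries, with genes in chromosome order. Control 1 (filled dark circles) lies lowest for H19, Igf2, Cdkn1c, Slc22a18 and Phlda2, highest for Cd81 and Nap1l4, and among the other libraries for Tssc4 and Osbpl5.

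Partners in the same domains were set beside the members. Of 35 partner genes 34 were in the table, 7 were listed at 0 in all libraries, 13 were tested, and 0 passed in limma or in the authors' deposited table, with 1 at an unadjusted p under 0.05 (Osbpl5, lower). Their median log2 fold change was -0.051. Igf2r overlaps the start of Airn, the paternally transcribed antisense RNA that silences the paternal Igf2r copy, over 28.4 kb on the opposite strand. The kit's labels name no strand, so reads from the overlap could count to either. Airn stood at 5.597 and 7.168 FPKM in the Ovol2-deficient libraries and at 4.18 and 5.34 FPKM in the controls (log2 fold change 0.36, adjusted p = 0.302 in limma), and the authors' deposited table gave -0.0021. Leaving out control 1 gave 0.21 in limma, and leaving out Ovol2-deficient library 2 gave 0.20. The FPKM ratio of Igf2r to Airn was 5.67 and 4.55 in the Ovol2-deficient libraries and 8.09 and 7.14 in the controls. These groups did not overlap, but 2 against 2 libraries cannot give a two-sided exact permutation p below 0.33.

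The ratio of H19 to Igf2 was 0.556 and 0.603 in the Ovol2-deficient libraries and 3.86 and 1.13 in the controls. The high value was that of control 1, where Igf2 was lowest. None of the tested partners passed in limma. Phactr2, beside Plagl1, stood at 6.32 and 6.09 FPKM in the Ovol2-deficient libraries and at 7.34 and 7.51 in the controls (log2 fold change -0.23, adjusted p = 0.341 in limma). Copg2, which overlaps the end of Mest, had a log2 difference of -0.051, and Ube3a, the ubiquitin ligase of the Ndn domain, one of -0.022 (adjusted p = 0.859 for Copg2 and 0.941 for Ube3a in limma). Meg3, the noncoding partner of Dlk1, and Kcnq1ot1, that of Cdkn1c, had a mean under 1 FPKM and were not tested in limma. They had at most 0.39 and 0.21 FPKM in any library. Kcnq1ot1 is annotated with 93092 bases of exon, and FPKM is corrected for length. Its mean signal in the authors' deposited table was 147.2, against 75.1 for Ndn and 17.5 for Meg3. That table gave Kcnq1ot1 a log2 fold change of 0.19 (adjusted p = 0.769) and Meg3 no adjusted p. Snrpn and Snurf, which share exons in the Ndn domain, varied from 5.11 to 13.6 and from 0.84 to 5.53 FPKM between libraries, with log2 fold changes of -0.40 for Snrpn (adjusted p = 0.634) and -0.58 for Snurf (adjusted p = 0.638), and both had a mean signal of 0 in the authors' deposited table.

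Other imprinted genes outside these domains gave 0 of 13 tested genes called in limma and 1 in the authors' deposited table, with 4 at an unadjusted p under 0.05 (3 higher, 1 lower) and a median log2 fold change of 0.14. The largest differences were of Peg10 and Sgce, neighbours on chromosome 6 whose ends lie 98 bases apart. Peg10, a gene of retrotransposon origin, stood at 2.91 and 2.67 FPKM in the Ovol2-deficient libraries, against 1.44 and 1.19 FPKM in the controls. Sgce, epsilon-sarcoglycan, stood at 10.8 and 12.1 FPKM in the Ovol2-deficient libraries, against 7.81 and 7.27 FPKM in the controls. For both genes the groups were well apart. The log2 fold changes were 0.71 for Peg10 and 0.54 for Sgce, with adjusted p of 0.0643 and 0.0639 in limma. Both were called with the library number as a second term (adjusted p = 0.0432 for Peg10 and 0.0496 for Sgce) and without control 1 (adjusted p = 0.0475 for Peg10 and 0.0480 for Sgce), and Sgce also at a mean FPKM of 5 or more (adjusted p = 0.0467). Their adjusted p in the authors' deposited table were 0.00145 for Peg10 and 0.148 for Sgce.

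Among 11 tested genes that write, keep or remove DNA methylation and imprints, 1 fell and 10 did not pass in limma. Their median log2 fold change was -0.11, and 10 of the 11 lay below 0. Uhrf1, which brings the maintenance methyltransferase to replicating DNA, fell to 13.7 and 14.6 FPKM in the Ovol2-deficient libraries, against 22.3 and 27.4 FPKM in the controls (log2 fold change -0.76, adjusted p = 0.0419). Its call was lost without Ovol2-deficient library 1 (adjusted p = 0.206) or 2 (adjusted p = 0.166), and in 6 of 12 alternatives in all. The authors' deposited table gave Uhrf1 a log2 fold change of -0.72 (adjusted p = 1.24e-05). Dnmt1, the maintenance methyltransferase, stood at 16.2 and 15.01 FPKM in the Ovol2-deficient libraries and 20.9 and 26.9 FPKM in the controls (adjusted p = 0.0835 in limma and 0.000485 in the authors' deposited table). Zfp57 stood at 2.60 and 3.16 FPKM in the Ovol2-deficient libraries and 1.63 and 2.64 FPKM in the controls (adjusted p = 0.440). Methylation itself was not measured.

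In the IGF signalling list, 0 of 15 tested genes passed in limma, with 5 at an unadjusted p under 0.05 and a median of 0.076, and the authors' deposited table called 1 higher (Igfbp4) and 1 lower (Igfbp3). The type 1 receptor Igf1r stood at 10.6 and 11.1 FPKM in the Ovol2-deficient libraries and 11.7 and 12.9 FPKM in the controls (log2 fold change -0.17, adjusted p = 0.464). The largest differences were of Igfbp3, a binding protein that holds IGFs in the extracellular space, at 31.5 and 36.5 FPKM in the Ovol2-deficient libraries against 48.2 and 69.7 FPKM in the controls (log2 fold change -0.76, adjusted p = 0.0806), and of Igfbp6 (log2 fold change 0.45, adjusted p = 0.386). Igfbp3 was called with the library number as a second term (adjusted p = 0.0168) and without control 1 (-1.02, adjusted p = 0.00707), and it was -0.50 without control 2. Igfbp6 was 0.12 without control 1 and 0.77 without control 2. Igf1 had under 0.14 FPKM in every library.

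Genes listed as markers of other cells also differed between these libraries, and bulk RNA does not show which cells made them. Of 24 fibroblast or feeder markers 21 were tested, 3 rose and 18 did not pass in limma. At an unadjusted p under 0.05 in limma 18 of the 21 were higher, against 17.4% of all tested genes in either direction. The authors' deposited table called 12 higher of the 22 with an adjusted p there. All 21 log2 fold changes in limma lay above 0, from 0.23 to 0.74 with a median of 0.53. Their summed level was 827.5 and 897.9 FPKM in the Ovol2-deficient libraries and 632.3 and 593.7 FPKM in the controls. None was listed at 0 in all libraries, while the dermal fibroblast proteoglycan gene Lum was at most 0.078 FPKM and Dcn at most 1.003. Loxl1, a collagen cross-linking enzyme, rose with a log2 fold change of 0.69 (adjusted p = 0.0412) and Serpinf1 with 0.64 (adjusted p = 0.0470). The log2 fold changes of Grb10 (0.59), Dlk1 (0.50), Peg10 (0.71) and Sgce (0.54) were within the range of these markers. Those of H19 (0.56) and Mest (0.26), whose groups overlapped, also lay in that range. The part of feeder or fibroblast RNA in these genes was not tested. The 14 proliferation genes, of which 9 fell and 5 did not pass in limma, had a median of -0.67. Mki67 was at -0.81 (adjusted p = 0.0353) and Plk1 at -0.79 (adjusted p = 0.0419). All 14 were lower at an unadjusted p under 0.05 in limma, and the authors' deposited table called 12 lower. The part of proliferation in the lower Uhrf1, Dnmt1 and Plagl1 values was not tested.

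Keratinocyte markers were high in every library, with Krt5 at 2484 and 2269 FPKM in the Ovol2-deficient libraries and 2960 and 2762 in the controls. Of the 12 tested 0 passed in limma, 5 were lower at an unadjusted p under 0.05, and the authors' deposited table called 3 lower. All 12 log2 fold changes in limma lay below 0, with a median of -0.25. Itga6 and Col17a1 had the largest differences, -0.46 (adjusted p = 0.0581) and -0.41 (adjusted p = 0.0848), and both were called with the library number as a second term (adjusted p = 0.0308 for Itga6 and 0.0315 for Col17a1), Itga6 also at a mean FPKM of 5 or more (adjusted p = 0.0473). Of 6 tested melanocyte markers 0 passed in limma, 4 were higher at an unadjusted p under 0.05 and 1 was called higher in the authors' deposited table, with a median of 0.37 (Tyr 0.50, Dct 0.48). Dct was called at a mean FPKM of 5 or more (adjusted p = 0.0467 in limma). No muscle marker of 8 reached a mean of 1 FPKM. Of 6 endothelial markers 2 were tested, Kdr (0.44) and Pecam1 (-0.29), and of 7 immune markers 1, Lyz2 (0.04), with 0 of these 3 passing in limma, at an unadjusted p under 0.05 or in the authors' deposited table.

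**Figure D5:**
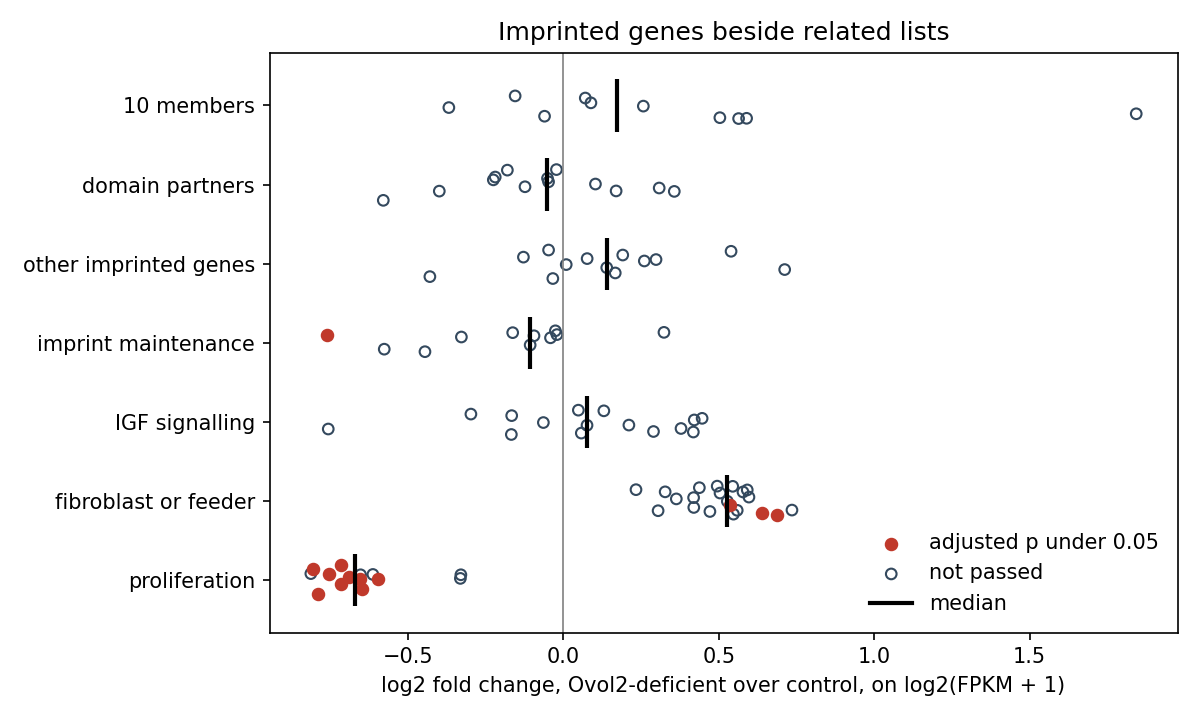
Log2 fold changes (Ovol2-deficient over control, on log2(FPKM + 1)) of each tested gene of the 10 members and of 6 related lists, filled red where the adjusted p was under 0.05, with the list median as a bar. The members scatter on both sides of 0 around 0.17, while the fibroblast or feeder markers lie above 0 around 0.53 and the proliferation genes below 0 around -0.67.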

How the data were processed

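RNA of 4 libraries had been extracted with Trizol, amplified as full-length cDNA and tagmented with a Nextera kit, per the labels' protocols. The submitters' processing notes name TopHat, HTSeq and mm10, with no version or order. The authors deposited FPKM for 24487 rows and a comparison table of 24062 rows, which per the file headers holds a mean normalized signal, a log2 fold change with its SE, a test score, p-values and adjusted p-values. The column names of the deficient libraries match the group only, so their numbers are those of the table. Depth per library was not given, so no counting interval was computed. Between 5 and 13 values were identical in any pair of libraries.

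A repeated header line and 27 rows whose symbols read as dates were removed, and rows sharing a symbol were summed. Limma 3.58.1 (R 4.3.3; group as the only term, variance trend, Benjamini-Hochberg adjustment, threshold 0.05) was fitted on log2(FPKM + 1) for genes averaging 1 FPKM or more, a scale that understates changes of low genes. Design choices assumed FPKM or counts, and the files held FPKM. The model was tested on simulated data. Gene coordinates are from GENCODE M21 on GRCm38, the build of mm10. The members and lists were chosen with earlier results of these data known. Named were the members, Ovol2, their domain partners, up to 2 called genes per direction of each list or else the 2 largest differences, and the 3 genes nearest to each of 3 members; other genes were named after their values were seen. The alternatives were other pseudocounts, filters and scalings, no variance trend, the library number as a block, and each library left out.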

Additional observations from a re-analysis of the deposited data

Results flagged for a closer look

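Of the 10 genes, 4 moved in opposite directions in the libraries numbered 1, which held Xist RNA, and those numbered 2, which held Y-linked RNA. Opposite differences were seen in 35.3% of all tested genes, so a count of 4 of 10 is near the background. The differences themselves were not tested, since each number held 1 library per group. H19 was higher by 1.41 on the log2(FPKM + 1) scale in Ovol2-deficient library 1 than in control 1 and differed by -0.28 between the libraries numbered 2, a gap of 1.69. For Cdkn1c the differences were 0.80 and -0.62, a gap of 1.42, and for Ndn 0.48 and -0.34, a gap of 0.82. Mest went the other way, with -0.053 and 0.57, a gap of -0.62. Igf2 moved the same way in both, with 3.19 and 0.49. The median size of such a gap over all tested genes was 0.154. Of all tested genes, 99.6% had a smaller gap than H19, 99.4% than Cdkn1c, 98.1% than Ndn and 95.9% than Mest.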

How the results depend on the processing

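The number of the 10 genes called in limma was 1 (Grb10) with the library number as a replicate block, with a pseudocount of 0.1 or with a filter at a mean FPKM of 5, and 0 to 3 with 1 library left out, where 3 (H19, Igf2, Grb10) came without control 2. The log2 fold change of Grb10 was 0.59 with the replicate block, 0.64 at a pseudocount of 0.1 and 0.59 at the filter of 5. The count over all genes was 518 with the replicate block, 3 with no filter, 267 at the filter of 5, 5 under quantile normalization, 80 with libraries shifted to a common median, 6 without the variance trend, 10 and 40 without Ovol2-deficient library 1 and 2, and 466 and 237 without control 1 and 2, against 153. Same-numbered libraries deviated together from their group means (r = 0.22 across genes), but the labels do not pair them. With 1 library left out, log2 fold changes ranged from -0.041 to 1.17 for H19, 0.80 to 2.88 for Igf2, -0.31 to 0.48 for Cdkn1c, 0.51 to 0.67 for Grb10, -0.15 to 0.67 for Mest and -0.25 to 0.39 for Ndn, from -0.14 to 0.035 for Copg2, -0.96 to 0.17 for Snrpn, -1.44 to 0.28 for Snurf, -0.077 to 0.032 for Ube3a, -0.47 to 0.54 for Lyz2, 0.20 to 0.51 for Airn, 0.0044 to 0.61 for Phlda2, 0.12 to 0.77 for Igfbp6, 0.15 to 0.73 for Kdr, -0.40 to -0.18 for Pecam1 and -0.24 to -0.072 for Igf2r. The log2 change of the ratio of H19 to Igf2 ranged from -2.73 to -0.96, of Mest to Copg2 from -0.032 to 0.77 and of Ndn to Ube3a from -0.31 to 0.49. In these fits the lone library of a group was assumed to vary like the other group, and the cause of these moves was not tested. Igf2r, Plagl1, Peg3 and Dlk1 kept their direction and stayed uncalled under every alternative that tested them. Of the called genes named, Uhrf1, Loxl1 and Serpinf1 each lost the call in 6 of 12 alternatives, and Mki67 and Plk1 in 5. Dlk1 and Ndn were below the filter at a mean FPKM of 5. Tests on counts were not run, since the files hold none.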

Other observations

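For the 3 members with the widest range of log2(FPKM + 1), the tested genes with the nearest pattern over the 4 libraries were found by Euclidean distance of centred values, as a description of 4 points. Nearest to H19 (range 1.41) were Krt18, Pdpn and Krt8, at distances of 0.21, 0.33 and 0.37. Krt8 and Krt18 are the keratin pair of simple epithelia and Pdpn is a membrane mucin. Krt18 stood at 8.67 and 6.09 FPKM in the Ovol2-deficient libraries and at 2.77 and 9.14 FPKM in the controls. Nearest to Igf2 (range 3.19) were Pet117, Prl8a1 and Ear2, at larger distances of 0.74, 0.78 and 1.12, and Prl8a1, of the placental prolactin family, stood at 9.99 and 6.78 FPKM in the Ovol2-deficient libraries and at 1.42 and 5.06 FPKM in the controls. Prl8a1 and Ear2 belong to families of close copies, so their values are uncertain. Nearest to Mest (range 0.82) were Taf7, Rhob and Zfp36, at 0.072, 0.082 and 0.099. Zfp36, an mRNA-destabilizing protein induced by stress and growth factors, stood at 152.0 and 140.1 FPKM in the Ovol2-deficient libraries and at 166.0 and 86.8 FPKM in the controls.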
